A study of Rattus norvegicus with 8 samples.

Results

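The collagens are the structural proteins of the extracellular matrix, and the genes described here are the 38 whose symbol is Col, a number, a and a number, among 14016 entries in the table of RNA sequencing from rat thyroarytenoid (TA) muscle. The TA muscle lies within the vocal fold, inserts into the thyroid and arytenoid cartilages and is covered by mucosa. Male Long Evans rats at 8 months of age were sampled, 4 Pink1-/- rats with a homozygous knockout of the mitochondrial kinase gene Pink1 and 4 WT rats. The deletion was not restricted to muscle. The value used for each gene is its average log2 CPM, that is, log2 of the read count scaled to the size of the library (CPM), which the authors averaged over all 8 samples. It holds both genotypes together. The table also carries the authors' own comparison of Pink1-/- with WT, which was not used, so no difference between genotypes is given here. It has no values per rat, so no SD could be given, and depth per library is unknown.

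Each collagen molecule is wound from 3 chains that carry glycine at regular steps. Fibrillar collagens form the cables of the connective tissue around fibers, and type IV collagen forms the sheet of the basement membrane that wraps each muscle fiber and capillary. Cartilage is built on type II collagen with types IX, X and XI, while types VII and XVII fasten stratified epithelium to the tissue beneath it. Type VI collagen forms beaded filaments at the surface of muscle fibers, and loss of its chains causes muscle disease in humans.

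Col4a1 with Col4a2, and Col4a3 with Col4a4, lie as head-to-head pairs on opposite strands, and their start regions are shown because each pair can be set beside the reads of its 2 members. Both windows are given from RefSeq in the build GRCr8, plus strand, from 250 bases before to 50 bases after the start, with no coordinates because no source used here names the build of the deposited table. Capitals mark the part that is also in the window of the partner, read on the other strand.
Col4a1, with 176 bases shared with Col4a2: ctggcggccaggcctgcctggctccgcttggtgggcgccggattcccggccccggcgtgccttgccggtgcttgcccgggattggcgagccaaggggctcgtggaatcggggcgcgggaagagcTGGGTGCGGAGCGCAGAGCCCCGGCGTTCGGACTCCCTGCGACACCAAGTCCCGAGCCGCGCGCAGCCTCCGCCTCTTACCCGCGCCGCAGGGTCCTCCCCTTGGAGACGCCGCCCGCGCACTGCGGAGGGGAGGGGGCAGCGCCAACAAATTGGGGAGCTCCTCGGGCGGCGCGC
Col4a3, with 88 bases shared with Col4a4: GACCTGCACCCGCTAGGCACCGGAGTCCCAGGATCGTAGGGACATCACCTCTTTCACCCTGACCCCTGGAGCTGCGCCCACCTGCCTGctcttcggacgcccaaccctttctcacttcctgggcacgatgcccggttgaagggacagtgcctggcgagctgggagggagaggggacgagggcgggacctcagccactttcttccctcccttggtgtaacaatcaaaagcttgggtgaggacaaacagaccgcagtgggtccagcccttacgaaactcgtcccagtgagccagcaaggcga

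The collagen family took 0.144% of all reads, with 0.271% of the entries. In that total, 2 entries under clone names took 43.0% of all reads, and the share of the collagens was 0.253% without them. Over the 38 collagens the median average log2 CPM was 3.95, beside 3.14 over all 14016 entries, and 24 collagens were above the latter value and 14 below it. The 3 collagens with most reads, Col3a1, Col1a2 and Col1a1, held 40.9% of the collagen reads, and the 10 with most reads held 73.5%. At the other end 6 collagens (15.8%) had an average log2 CPM under 1, beside 15.3% of all entries. These figures count reads, and a long transcript yields more reads than a short one at the same number of molecules. No transcript lengths were at hand, so the order of genes below is an order of reads and not of molecules. Of 45 listed collagens, 7 have no entry under their symbol, and all shares here leave them out. The sources used here do not say why a gene has no entry. A missing entry is therefore not read as a lack of expression.

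**Figure D1:**
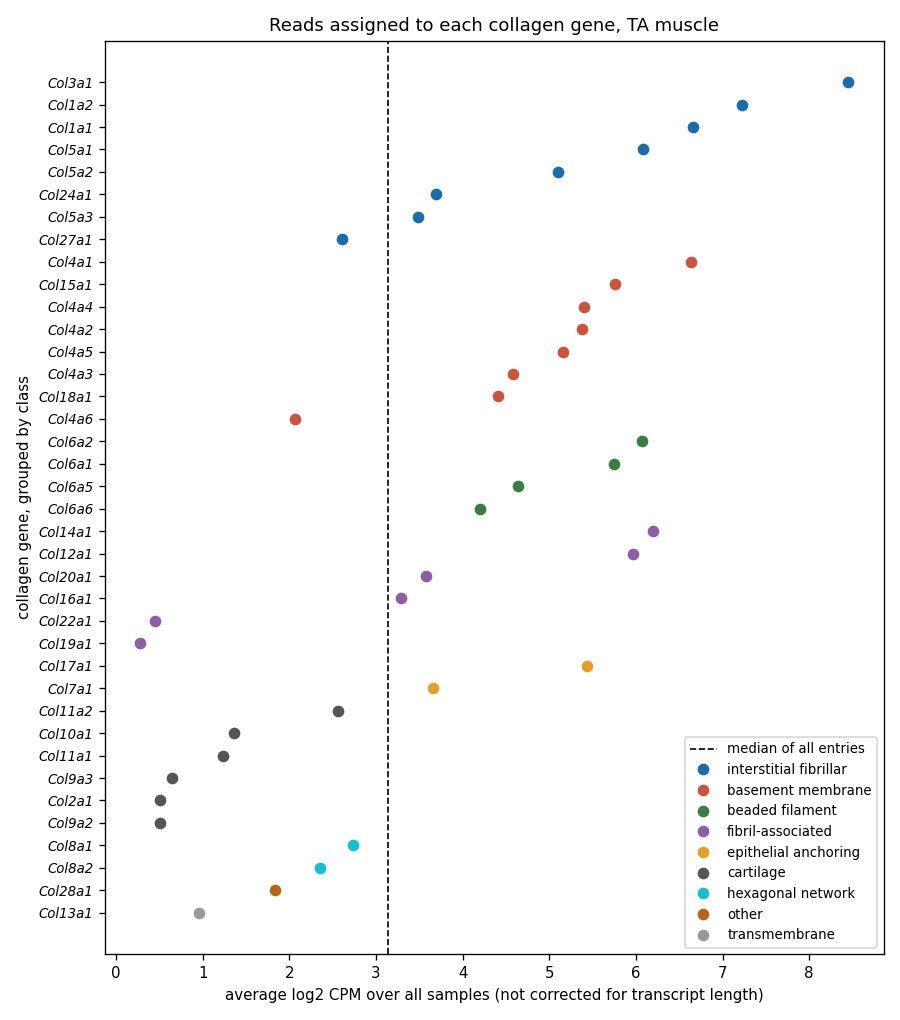
Average log2 CPM over all samples (horizontal axis, not corrected for transcript length) of each of the 38 collagen genes, one point per gene and colored by class. The dashed line is the median of all 14016 entries at 3.14, and the 6 cartilage collagens all lie to its left.

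Interstitial fibrillar collagens held 49.9% of the collagen reads with 8 genes, and 7 of the 8 were above the median of all entries. The median CPM of this class was 28.1% of the sum of the class medians, which is not a share of reads. Col3a1, the single chain of type III collagen, which is abundant in distensible tissue, had the highest average log2 CPM of the family at 8.45, or 350.4 CPM. It stood 124th among all entries and alone took 23.9% of the collagen reads. The chains of type I collagen, the main protein of tendon and scar, followed at an average log2 CPM of 7.23 for Col1a2 and 6.66 for Col1a1. Type I collagen is usually assembled from 2 alpha 1 chains and 1 alpha 2 chain, and the reads of Col1a2 were 1.48 times those of Col1a1. Reads of RNA, here not corrected for length, do not give the ratio of chains in the molecule. The table also holds an entry under a provisional name that it describes as the same alpha 2 chain, at an average log2 CPM of 5.85. Reads of this one gene may have been divided between both entries, and their sum gave an average log2 CPM of 7.70 and 2.05 times the reads of Col1a1. Type V collagen, which sets the diameter of type I fibrils, was at 6.08 for Col5a1, 5.11 for Col5a2 and 3.49 for Col5a3 on the same log2 CPM scale. The other fibrillar chains, Col24a1 at 3.69 and Col27a1 at 2.61 average log2 CPM, are known from developing bone and cartilage, and Col27a1 was the only gene of this class below the median of all entries.

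Basement membrane collagens held 21.9% of the collagen reads with 8 genes, 7 of them above the median of all entries. Col4a1, a chain of the type IV network present in nearly all basement membranes, had an average log2 CPM of 6.63. Its partner Col4a2 was at 5.38. The molecule takes 2 alpha 1 chains for each alpha 2 chain, and the reads of Col4a1 were 2.38 times those of Col4a2. This too is a ratio of RNA reads and not of chains in the molecule. Both genes start 77 bases apart on opposite strands, as shown in the window above. The chains of the second type IV network, known from kidney glomerulus and, in mice, from the basement membrane at the neuromuscular junction, had average log2 CPM values of 4.58 for Col4a3, 5.40 for Col4a4 and 5.16 for Col4a5. Thus all 3 chains of that network were read, and each was above the median of all entries. Col4a3 and Col4a4 start 413 bases apart, and the reads of Col4a4 were 1.77 times those of Col4a3. The widest gap within a type IV pair was between Col4a5 and Col4a6, a chain of smooth muscle and epithelial basement membranes, which was at 2.06 average log2 CPM. The reads of Col4a5 were 8.55 times those of Col4a6, and the windows of this pair share no stretch longer than 8 bases. Col4a5 and Col4a6 lie on opposite strands. With genes ordered by position in RefSeq GRCr8, 1 other protein-coding gene is listed between them. It may overlap either of them, so it need not separate their starts. Col15a1, which ties basement membrane to the fibrils outside it and is needed in mouse muscle for fiber stability, was at an average log2 CPM of 5.76. An entry described as a type XV chain-like gene, under a provisional name, was at 5.01, and both together gave 6.44 on the same scale. Col18a1, the source of the fragment endostatin, was at an average log2 CPM of 4.41.

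**Figure D2:**
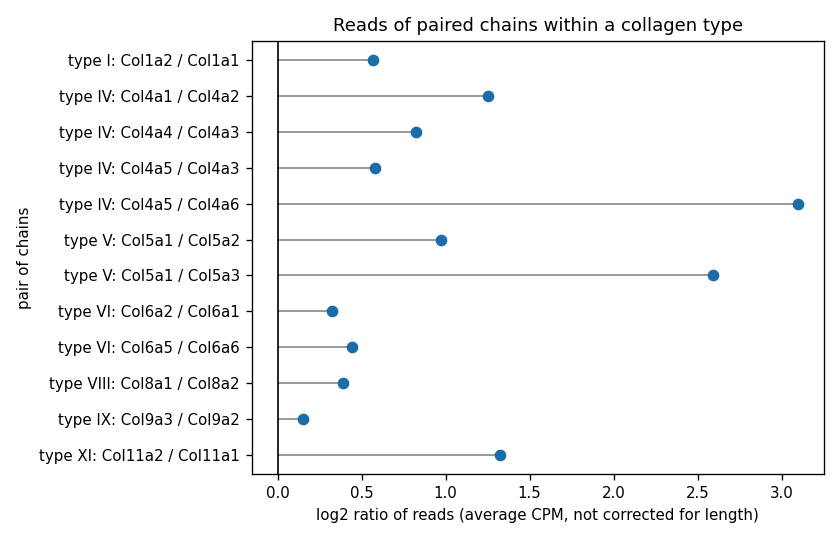
Log2 ratio of reads (horizontal axis, not corrected for length) between 2 chains of the same collagen type, one point per pair, with a line from 0 (equal reads). The pair Col4a5 and Col4a6 is farthest from 0 at 3.10, and Col9a3 and Col9a2 are nearest at 0.15.

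Cartilage collagens held 1.04% of the collagen reads with 6 genes, none of them above the median of all entries. Col2a1, the main fibrillar chain of hyaline cartilage, had an average log2 CPM of 0.51 and stood 12713th among 14016 entries. The type IX chains, which coat type II fibrils, were at 0.65 for Col9a3 and 0.50 for Col9a2 average log2 CPM, and Col9a1 has no entry in the table used here. Of the chains of type XI, which lies in the core of cartilage fibrils, Col11a2 had most reads of the class at 2.56 average log2 CPM, and Col11a1 was at 1.24. Col10a1, a marker of hypertrophic cartilage, was at an average log2 CPM of 1.36. Of 10 listed cartilage markers other than collagens, Comp, Matn1, Matn3 and Snorc have no entry, which is not read as a lack of expression. The 6 measured markers had a median average log2 CPM of 2.02. Among them the proteoglycan core protein gene Acan was at 2.11, the transcription factor gene Sox9 at 2.64, Chad, a leucine-rich matrix protein, at 1.93 and Cnmd, a cartilage glycoprotein, at 0.08 on this scale. The secreted factor gene Cytl1 was at 4.66 and was the only one of the 6 above the median of all entries.

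Epithelial anchoring collagens held 3.80% of the collagen reads with 2 genes, and both were above the median of all entries. The median CPM of this class was 15.4% of the sum of the class medians, which is not a share of reads. Col17a1, a transmembrane collagen of the hemidesmosome of basal keratinocytes, had an average log2 CPM of 5.44, and its reads ranked 11th among the 38 collagens. Col7a1, which forms the anchoring fibrils under stratified epithelium, was at an average log2 CPM of 3.66. Markers of squamous epithelium were measured in 9 of 10 listed genes, with a median average log2 CPM of 5.25 and 8 of the 9 above the median of all entries. The keratin genes Krt4, Krt15 and Krt13 were at 8.18, 8.14 and 8.01, the basal keratin gene Krt5 at 5.53 and the desmosomal gene Dsc3 at 2.37 average log2 CPM. The tissue labelled muscle thus also held reads of genes that mark stratified epithelium, and the part that this epithelium has in the values of Col17a1 and Col7a1 was not tested. In such bulk samples fewer cells of a type and less RNA per cell cannot be told apart.

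**Figure D3:**
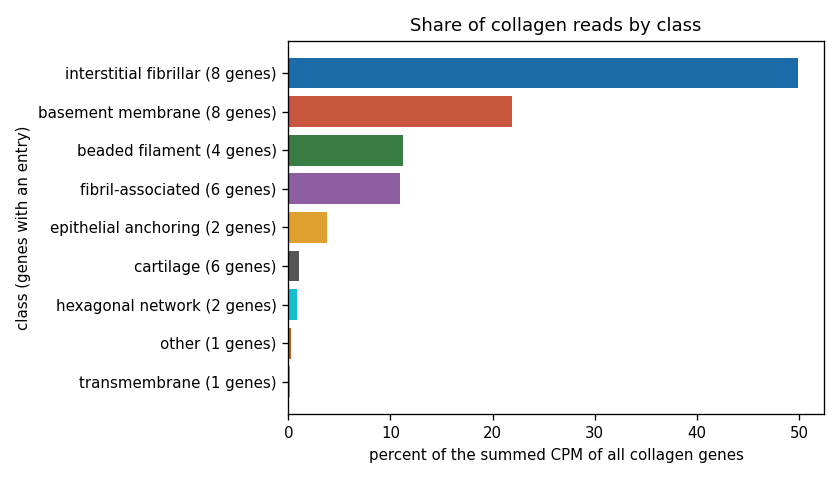
Percent of the summed CPM of all collagen genes (horizontal axis, starting at 0) held by each of the 9 classes, with the number of genes that have an entry. Interstitial fibrillar collagens hold 49.9%, basement membrane collagens 21.9%, and cartilage collagens 1.04%.

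Beaded filament collagens held 11.2% of the collagen reads with 4 genes, all above the median of all entries. The median CPM of this class was 21.8% of the sum of the class medians, which is not a share of reads. Col6a2 and Col6a1, which assemble with each other, had average log2 CPM values of 6.08 and 5.75, and the reads of Col6a2 were 1.25 times those of Col6a1. Both genes are neighbours on chromosome 20 with 0 protein-coding genes between them in RefSeq GRCr8. Their usual partner Col6a3 and Col6a4 have no entry in the table used here, so the class share leaves them out. Chains that can take the place of alpha 3 were at 4.64 for Col6a5 and 4.20 for Col6a6 average log2 CPM, and these genes too are neighbours. Col6a5 is the only one of the 38 collagens for which the copy of the NanoString CodeSet used here holds a probe, and the study selected the CodeSet partly on these samples. Its target sequence of 100 bases is shown because it is the stretch by which this collagen was later measured at 2 months of age.
Col6a5 probe target: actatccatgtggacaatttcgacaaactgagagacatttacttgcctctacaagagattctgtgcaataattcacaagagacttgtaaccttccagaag

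Fibril-associated collagens outside cartilage held 10.9% of the collagen reads with 6 genes, which were widely spread. The median CPM of this class was 5.98% of the sum of the class medians, which is not a share of reads. Col14a1 and Col12a1, which bind the surface of type I fibrils, had average log2 CPM values of 6.20 and 5.96. Col20a1 and Col16a1 lay nearer the median of all entries, at 3.58 and 3.29 on the same scale. Col22a1, a collagen of the myotendinous junction, was at only 0.45, and Col19a1, known from muscle differentiation in mice, was the lowest of all 38 at 0.28. Col21a1 has no entry in the table used here. Of the remaining classes, Col8a1 and Col8a2, which form hexagonal networks under the corneal endothelium, were at 2.74 and 2.35 average log2 CPM. Col13a1, a transmembrane collagen of the neuromuscular junction, was at 0.95, and Col28a1, a collagen of peripheral nerve, was at 1.84 on this scale. Col23a1, Col25a1 and Col26a1 have no entry under these symbols, and an entry described as the alpha 1 chain of type XXIII was at 1.01 average log2 CPM under a provisional name.

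Neighbouring collagen genes did not have like numbers of reads in every case. Col3a1 and Col5a2 are neighbours on chromosome 9, with 0 protein-coding genes between them in RefSeq GRCr8, and had average log2 CPM values of 8.45 and 5.11. On the same chromosome Col19a1, at 0.28, lies beside Col9a1, which has no entry and so cannot be compared.

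Of the 38 collagens, 30 matched a RefSeq start window of 300 bases. The 8 without a window were Col1a1, Col2a1, Col3a1, Col6a2, Col9a3, Col12a1, Col14a1 and Col22a1, so Col3a1, with most reads, is not covered. The GC box letters GGGCGG, searched on both strands, were in 18 of these 30 windows (60.0%), beside 33.1% of all 33469 windows. The windows of all genes were not limited to protein-coding genes, and repeated windows of a gene were kept. For Col24a1 and Col6a5, which had more than 1 window, the first by start coordinate was taken. For the collagens only a single window per gene was thus used. These sets are thus unlike, here and for the other motifs and CG pairs below, and the differences were not tested. The letters CCAAT on both strands were in 10 windows (33.3%), beside 37.5% of all windows, and TATAAA on both strands was in 4 windows (13.3%), beside 14.2%. No hit of one motif overlapped a hit of another in these windows. The median number of CG pairs was 13 in the collagen windows and 7 in all windows, from 1 for Col10a1 to 38 for Col4a1. A high CG count went with few reads in some genes, as in Col13a1, with 31 CG pairs at 0.95 average log2 CPM, and Col8a2, with 34 at 2.35. Col4a1, Col4a2 and Col5a1, with 38, 37 and 36 CG pairs, had more reads, at 6.63, 5.38 and 6.08. A low count went with many reads in Col6a1, with 5 CG pairs at 5.75 average log2 CPM, and Col15a1, with 6 at 5.76. It went with few reads in Col10a1, with 1 CG pair at 1.36. A link between CG count and reads was not tested. The windows with TATAAA belong to Col1a2, Col10a1, Col13a1 and Col17a1. Those of Col1a2, Col10a1 and Col17a1 are shown, 3 genes of 3 classes at 7.23, 1.36 and 5.44 average log2 CPM. The window of Col13a1, a gene of another class at 0.95, is not shown. Capitals mark TATAAA and CCAAT, the latter as ATTGG where it lies on the other strand, and a match of letters is a description and not a site of binding.
Col1a2, plus strand: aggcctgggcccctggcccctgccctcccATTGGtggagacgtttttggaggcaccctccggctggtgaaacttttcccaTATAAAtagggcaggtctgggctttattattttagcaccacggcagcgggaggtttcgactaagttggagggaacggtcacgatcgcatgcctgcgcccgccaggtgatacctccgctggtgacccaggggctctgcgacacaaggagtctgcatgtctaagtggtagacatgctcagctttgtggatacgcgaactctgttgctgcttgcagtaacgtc
Col10a1, plus strand: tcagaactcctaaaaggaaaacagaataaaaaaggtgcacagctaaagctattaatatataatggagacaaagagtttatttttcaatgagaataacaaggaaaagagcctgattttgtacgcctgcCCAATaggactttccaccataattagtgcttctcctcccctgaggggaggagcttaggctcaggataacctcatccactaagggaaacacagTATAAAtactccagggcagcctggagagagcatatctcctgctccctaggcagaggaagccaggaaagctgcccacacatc
Col17a1, minus strand: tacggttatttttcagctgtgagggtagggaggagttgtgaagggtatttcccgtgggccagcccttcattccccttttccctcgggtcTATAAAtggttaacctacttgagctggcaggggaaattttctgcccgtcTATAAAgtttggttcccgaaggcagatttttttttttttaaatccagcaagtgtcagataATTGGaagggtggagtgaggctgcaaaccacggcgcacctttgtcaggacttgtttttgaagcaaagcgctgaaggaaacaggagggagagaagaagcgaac

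TATAAA began 31 bases before the RefSeq start in Col10a1, 170 bases before it in Col1a2 and, for the nearer of 2 matches, 112 bases before it in Col17a1. In Col13a1 it began 237 bases before the start. In the Col1a2 window the letters at the start are atg, so this start may be that of the coding sequence and not of transcription. The distance in Col1a2 may thus be unlike the others, and part of its window may lie within the transcript.

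Enzymes that fold and modify collagen chains were measured in 17 of 19 listed genes, with a median average log2 CPM of 3.81 and 12 above the median of all entries. P4hb and P4ha1, subunits of prolyl 4-hydroxylase, which stabilizes the helix, were at 6.83 and 5.05 average log2 CPM. Serpinh1, the collagen chaperone HSP47, was at 6.23, Ppib, a prolyl isomerase, at 4.84, and P4ha3 was the lowest at -0.08 on this scale. Genes that trim procollagen were measured in 6 of 10 cases, from 3.47 for Tll1 to 5.04 for PCOLCE2 average log2 CPM. Among these were Bmp1, the procollagen C-proteinase, at 4.92, its enhancer Pcolce at 4.09 and Adamts2, an N-proteinase, at 4.06. The cross-linking list had a median of 2.38, with 2 of 6 genes above the median of all entries. Tgm2, a transglutaminase, was at 6.86, while the lysyl oxidase genes Loxl1, Lox and Loxl2 were at 3.61, 2.81 and 1.95 and Loxl4 at 0.98 average log2 CPM.

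Proteins that bind fibrils had a median average log2 CPM of 5.89 in 9 of 10 listed genes, 7 of them above the median of all entries. Dcn, the small proteoglycan decorin, was at 9.34, Fn1, the matrix glycoprotein fibronectin, at 8.74, Sparc, a collagen-binding matrix protein, at 7.44 and Lum, lumican, at 7.17, and Kera was the lowest at 1.43 on this scale. Basement membrane partners had a median of 6.14 in 9 of 10 listed genes, all 9 above the median of all entries. They were led by the laminin chain gene Lamb2 at 7.28, the nidogen gene Nid1 at 6.99, and the laminin chain genes Lama2 at 6.94 and Lamc1 at 6.91, and Nid2 was the lowest at 4.60 average log2 CPM. Collagen receptors had a median of 4.56 in 9 of 11 listed genes, with 7 above the median of all entries. Itgb1, the beta 1 integrin shared by the collagen-binding integrins, was at 6.94, the receptor kinase genes Ddr2 and Ddr1 at 6.16 and 5.02, Mrc2, which takes up collagen fragments, at 4.85 and Itga10, a cartilage integrin, at -0.57 average log2 CPM. Proteases and their inhibitors had a median of 3.71 in 8 of 11 listed genes, with 5 above the median of all entries. Mmp2, a gelatinase, was at 6.53, the inhibitors Timp3 and Timp2 at 6.35 and 6.22, the membrane protease gene Mmp14 at 4.02 and Mmp16 at 0.68 average log2 CPM.

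**Figure D4:**
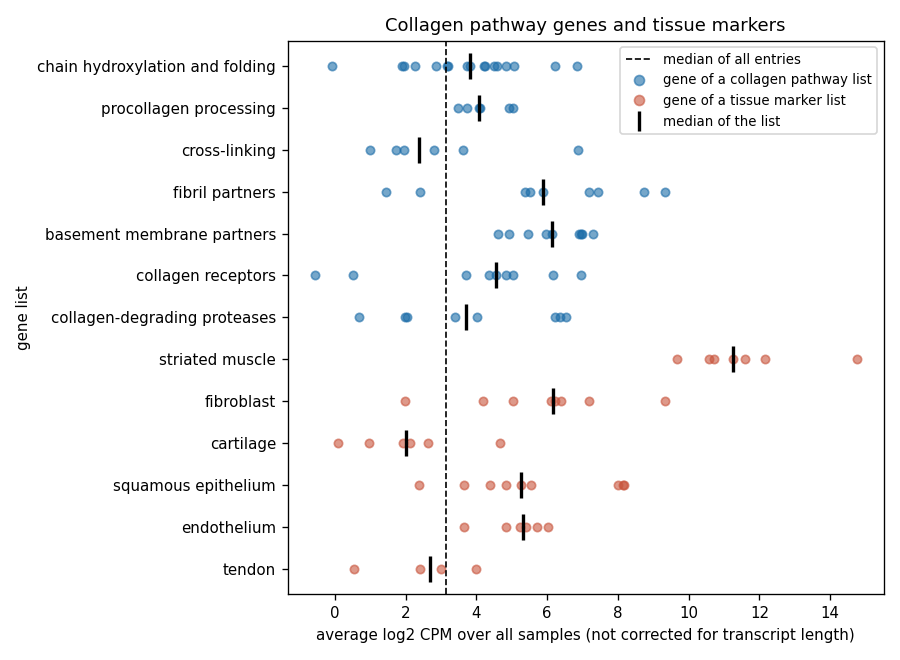
Average log2 CPM over all samples (horizontal axis, not corrected for transcript length) of the genes of 7 collagen pathway lists and 6 tissue marker lists, one point per gene, with a black bar at the median of each list. The dashed line is the median of all entries at 3.14; striated muscle markers lie farthest right, with a median of 11.26.

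The label of the tissue was checked against striated muscle markers, of which 7 of 11 listed genes have an entry, with a median average log2 CPM of 11.26. Myh1, Myh2, Atp2a1 and Ttn have no entry, and this is not read as a lack of expression. Myh4, a fast myosin heavy chain, was at 14.75, creatine kinase gene Ckm at 12.15, troponin gene Tnnt3 at 11.60, skeletal actin gene Acta1 at 11.26 and desmin gene Des at 9.67. Fibroblast markers had a median of 6.16 in 8 of 8 listed genes, led after Dcn and Lum by Fbln1 at 6.39 and Pi16 at 6.22, with Fap the lowest at 1.99 average log2 CPM. Endothelial markers had a median of 5.33 in 6 of 7 listed genes, from 3.65 for Egfl7 to 6.02 for Cdh5, with Vwf at 5.72, Kdr at 5.41 and Tek at 5.24. Tendon markers had a median of 2.69 in 4 of 6 listed genes, with Thbs4 at 3.997, Tnc at 2.99, Fmod at 2.39 and the tendon transcription factor gene Scx the lowest at 0.54 average log2 CPM. The part of each of these cell types in the collagen values was not tested.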

How the data were processed

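TA muscle of 8 male rats was sequenced as total RNA from TruSeq libraries, and labels gave the genotypes. RSEM and edgeR 3.9 are listed in the submitters' processing notes. For the aligner, build, annotation and library scaling, the sources used here give nothing. The deposited table of 14016 entries gives the authors' average log2 CPM over all samples. It holds 0 columns per sample. Its other 5 columns hold the authors' own comparison of genotypes (log2 fold change, likelihood ratio, p-value, adjusted p-value and status) and were not used, so the planned test between genotypes was not run and depth is unknown.

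Log2 CPM was converted to CPM and summed over genes (Python 3.11.15, pandas 2.3.3, numpy 2.4.6, matplotlib 3.10.9). The planned correction for transcript length could not be made, and shares and ratios are of reads. No symbol of the 38 collagens was on more than 1 row. The motif search was tested on a short made-up sequence with known matches. Members and lists were chosen with earlier results of these data known. All collagens are named, and of each other list the 4 highest genes and the lowest. A further marker list is not reported here. Alternatives were a minimum log2 CPM of 1, a subtracted prior of 0.1 CPM, medians in place of sums, all entries of a symbol, provisional entries added, and the 2 largest entries left out.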

Additional observations from a re-analysis of the deposited data

How the results depend on the processing

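Adding provisional entries and leaving out the 2 largest entries were chosen after seeing the data, and 36 of 47 values computed under alternatives moved in the first 3 digits. The collagen share of all reads was 0.153% with provisional entries added and 0.253% with the 2 largest entries left out. With a minimum log2 CPM of 1, the shares of collagen reads were 50.2% for interstitial fibrillar, 22.1% for basement membrane, 0.741% for cartilage and 3.83% for epithelial anchoring collagens. The median CPM of each class was also taken as a percent of the sum of the class medians, which is not a share of reads. These percents were 28.1%, 21.4%, 1.08% and 15.4% in the same order. They differ from the shares since the sum weights Col3a1 most and a class of 2 genes counts as much as one of 8. The percents were 21.8% for beaded filament, 5.98% for fibril-associated, 3.25% for hexagonal network, 1.07% for transmembrane and 1.97% for other collagens. With a prior of 0.1 CPM subtracted, fibrillar collagens held 50.0% and cartilage collagens 0.998%, and with provisional entries added the shares were 50.7%, 22.7%, 0.975% and 3.58%. Per-length values, DESeq2, other scaling, no filter and leaving out each rat were not run, for want of lengths and of values for single rats. No paired analysis was possible because samples were averaged together. The average may include a prior count of unknown size, which would raise low values such as those of the cartilage collagens.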
